A study of Homo sapiens with 19 samples.

Results

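STAT3 messenger RNA was followed across knockdown and rescue in MDA-MB-231 cells, a widely used human line from a triple-negative breast tumour. The gene was measured as 5 Ensembl transcripts of the 175775 listed in the files: ENST00000264657.9, ENST00000404395.3, ENST00000588969.5, ENST00000389272.7 and ENST00000585517.5. They were chosen by their IDs, from a list of STAT3 transcripts supplied for this work, and all 5 were present. The choice went by ID and not by level, but it was made with earlier results of these data known. The files hold no gene names, so the link of these IDs to STAT3 rests on that list. RefSeq lists 24 transcripts for STAT3, and reads given to any other STAT3 transcript in the files were not counted. STAT3 reads, sums and shares below therefore cover only these 5.

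In the siRNA experiment the groups were siSTAT3 (siRNA against STAT3, 2 libraries), siHMGN5 (siRNA against HMGN5, 2 libraries) and Ctrl (control siRNA, 4 libraries). In the lentiviral experiment they were siSTAT3+HMGN5 (STAT3 siRNA and lentiviral HMGN5, 3 libraries), siSTAT3+Vector (STAT3 siRNA and the control vector, 3 libraries) and Ctrl+Vector (control siRNA and the control vector, 3 libraries). All cells were transfected with siRNA at 30 nM; the siRNA sequences, and so the site they match in STAT3, were not used here. Poly(A) RNA was sequenced to 19114033 to 19509422 estimated reads per library in the siRNA experiment and 22500086 to 23047081 in the lentiviral one. Separate cultures are not stated for the replicates, and p-values therefore measure only the spread between these libraries, which may be technical.

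STAT3 is a latent transcription factor of the cytoplasm. Receptors of the gp130 family and several receptor tyrosine kinases lead to its phosphorylation on a tyrosine by JAK or SRC kinases, after which STAT3 pairs through its SH2 domain, enters the nucleus and binds DNA. It is persistently active in many breast cancers. Alternative splicing yields a full-length alpha form and a beta form with a shortened C terminus; the files do not say which transcript encodes which form. An siRNA guides the RNA-induced silencing complex to a matching stretch of a messenger RNA, which is then cut, so the STAT3 level is the direct check of the labels. HMGN5 belongs to the HMGN family, whose members bind nucleosomes and act on chromatin compaction.

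The gene lies on chromosome 17, minus strand, at positions 42313324 to 42388442 of GRCh38.p14 in RefSeq, under the Ensembl gene ID ENSG00000168610. Its promoter is printed because STAT3 is known to act on its own gene. The region before the start is a place where that could be read, though not the only possible place. The 250 bases before the RefSeq start (chr17:42388443-42388692, minus strand, from RefSeq) are given with a half-site of the cyclic AMP response element, TGACG, in capitals:
STAT3 promoter: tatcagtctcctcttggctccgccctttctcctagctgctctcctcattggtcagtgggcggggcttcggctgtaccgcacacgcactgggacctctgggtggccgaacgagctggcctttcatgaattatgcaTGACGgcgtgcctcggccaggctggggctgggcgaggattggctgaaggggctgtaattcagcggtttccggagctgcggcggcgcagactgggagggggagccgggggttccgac
On either strand, TGACG occurred 1 time here, and 21.2% of 35116 promoter windows of this length held it. The STAT motif TTCNNNGAA, which reads the same on both strands, did not occur in these letters and was present in 6.57% of the windows. No other spacing or form of a STAT site was searched, nor any sequence beyond these 250 bases. Its absence here therefore does not show that the promoter lacks STAT sites.

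STAT3 was low in every library labelled with STAT3 siRNA. Summed over the 5 transcripts, siSTAT3 libraries had 398 and 378 estimated reads, siHMGN5 libraries had 4083 and 3809, and Ctrl libraries had 2987, 2871, 2415 and 2522. The highest siSTAT3 library thus lay far below the lowest Ctrl library. In the lentiviral experiment the siSTAT3+HMGN5 libraries had 625, 623 and 624 reads, the siSTAT3+Vector libraries had 704, 642 and 693, and the Ctrl+Vector libraries had 4125, 3795 and 3868. All libraries treated with STAT3 siRNA lay below all libraries without it, in both experiments.

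Scaled to CPM (reads scaled by library size, with TMM scaling over all 17 libraries), the sum was 20.2 ± 0.648 in siSTAT3 (SD, n = 2), 195 ± 5.57 in siHMGN5 (SD, n = 2) and 139 ± 11.3 in Ctrl (SD, n = 4). It was 27.8 ± 0.358 CPM in siSTAT3+HMGN5, 30.3 ± 1.41 CPM in siSTAT3+Vector and 178 ± 12.3 CPM in Ctrl+Vector (SD, n = 3 each). From low to high the groups ran siSTAT3, siSTAT3+HMGN5, siSTAT3+Vector, Ctrl, Ctrl+Vector and siHMGN5. Libraries of neighbouring groups in this order did not overlap, except those of Ctrl+Vector and siHMGN5. On the deposited TPM scale the order was the same, and the neighbours siSTAT3+HMGN5 and siSTAT3+Vector, and also Ctrl and Ctrl+Vector, overlapped. The 2 experiments differ in infection and in depth, and levels set across them cannot be told apart from those differences. In bulk RNA, fewer cells with STAT3 and less STAT3 RNA per cell cannot be told apart either.

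**Figure D1:**
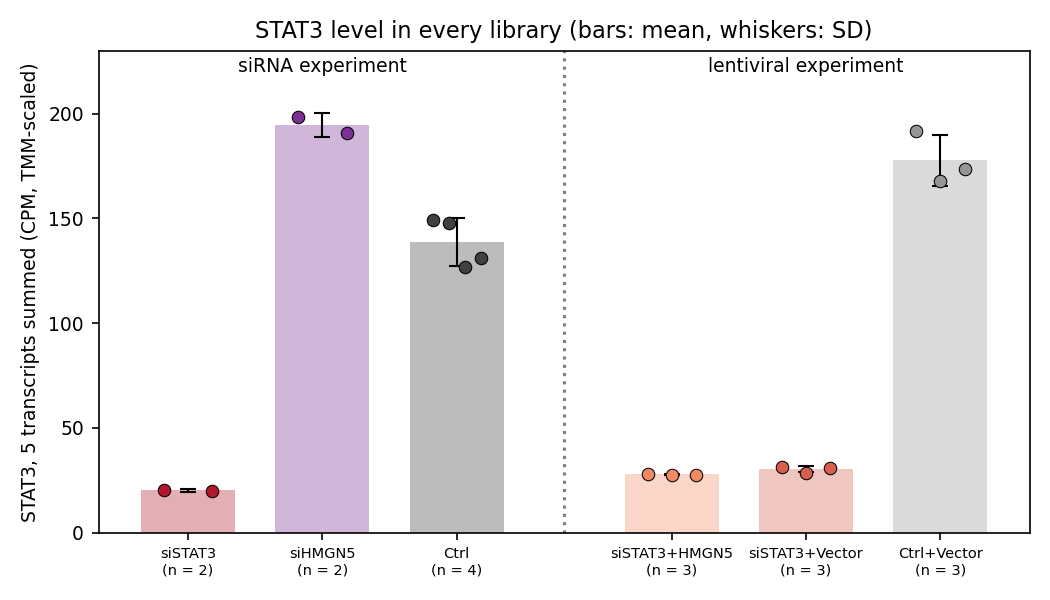
STAT3 level in CPM (5 transcripts summed, TMM-scaled over all 17 libraries) on the vertical axis, by group; points are libraries, bars are means and whiskers are SD. The 8 libraries with STAT3 siRNA lie between 19.7 and 31.4 CPM, and the 9 libraries without it lie between 127 and 199 CPM.

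In the siRNA experiment STAT3 siRNA lowered the summed STAT3 reads 6.78-fold, leaving 14.5% of the Ctrl mean. The log2 fold change was -2.76 ± 0.11 (SE, 95% interval -3.03 to -2.50, adjusted p = 0.000649 by Benjamini-Hochberg after the quasi-likelihood test of edgeR). Of all 74342 rows in that fit, 2.92% were called lower. The STAT3 row ranked 7 by p-value, and among 1553 rows called lower with a mean of at least 10 CPM, 38 fell by more. The Ctrl libraries fall into 2 pairs that differ across the transcriptome (mean chi-square 32.7 to 34 per transcript between the pairs, 15.8 and 16.3 within them). Against Ctrl replicates 1 and 2 alone the log2 fold change of STAT3 was -2.87, and against Ctrl replicates 3 and 4 alone it was -2.65 (adjusted p = 0.000271 and 0.000177, edgeR). Both came from a fit that kept all libraries, with the Ctrl pairs as separate groups. The difference between the pairs was therefore not part of its spread. Between the pairs themselves STAT3 differed by -0.22 ± 0.05 (log2, SE, replicates 3 and 4 over 1 and 2, adjusted p = 0.0876), where 4.39% of all rows were called.

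The siSTAT3 libraries were also far below the siHMGN5 libraries, which received an siRNA against another gene. The summed reads were 9.70-fold lower in siSTAT3 than in siHMGN5 (log2 fold change -3.28 ± 0.12, SE, adjusted p = 0.000773, edgeR). In that comparison 1.87% of rows were called lower.

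In cells carrying the control vector, STAT3 siRNA lowered the sum 5.86-fold, leaving 17.1% of the Ctrl+Vector mean. The log2 fold change was -2.55 ± 0.06 (SE, 95% interval -2.70 to -2.40, adjusted p = 3.76e-06, edgeR). Of 69766 rows, 7.07% were called lower, and the STAT3 row again ranked 7 by p-value. Among the 2899 rows called lower with a mean of at least 10 CPM, 31 fell by more than STAT3. The knockdown was thus measured in 2 experiments that share no library.

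Whether the knockdown differed in depth between the experiments was tested as an interaction in 1 fit of all 17 libraries. The STAT3 siRNA effect was 0.23 more negative on the log2 scale in the siRNA experiment than in the vector cells (difference -0.23 ± 0.11, SE, 95% interval -0.46 to 0.0032), and the difference did not pass the test (adjusted p = 0.294, edgeR). Of all rows, 5.51% were called in this contrast. With Ctrl replicates 1 and 2 as the only controls the difference was -0.33 (adjusted p = 0.0342), and with Ctrl replicates 3 and 4 it was -0.12 (adjusted p = 0.439). Both values came from a fit with the Ctrl pairs as separate groups and no library left out. The difference between the pairs was therefore not part of its spread. Within that fit the outcome depends on which pair of Ctrl libraries serves as control.

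STAT3 was also low in cells with STAT3 siRNA and ectopic HMGN5. The siSTAT3+HMGN5 libraries held 15.7% of the Ctrl+Vector mean, a 6.38-fold fall (log2 fold change -2.67 ± 0.06, SE, adjusted p = 1.27e-06, edgeR; 11.4% of rows were called lower). Set against siSTAT3+Vector, the sum in siSTAT3+HMGN5 was at 91.8% of the mean, with 28.2, 27.6 and 27.6 CPM in siSTAT3+HMGN5 and 31.4, 28.7 and 30.8 CPM in siSTAT3+Vector. The libraries did not overlap in CPM but did in deposited TPM, at 2.94 to 3.11 in siSTAT3+HMGN5 and 3.09 to 3.53 in siSTAT3+Vector. The difference did not pass the test (log2 fold change -0.12 ± 0.06, SE, adjusted p = 0.399, edgeR), where 3.77% of rows were called. Its 95% interval, -0.26 to 0.02, leaves room for a further fall but holds no rise above 0.02 on the log2 scale. The comparisons with Ctrl+Vector share its libraries, and HMGN5 itself was not measured here because the files do not name its transcripts.

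HMGN5 siRNA went with a higher STAT3 level. The sum was 199 and 191 CPM in siHMGN5, against 149, 148, 127 and 131 CPM in Ctrl, so both siHMGN5 libraries lay above all 4 Ctrl libraries. The rise was 1.43-fold (log2 fold change 0.52 ± 0.09, SE, 95% interval 0.29 to 0.74) and passed the test narrowly (adjusted p = 0.0390, edgeR; 0.943% of rows were called higher). It was smaller in the deposited TPM, at 25.2 and 21.7 TPM in siHMGN5 against 21.5, 19.95, 17.1 and 17.4 TPM in Ctrl. The rise was 0.41 over Ctrl replicates 1 and 2 and 0.63 over Ctrl replicates 3 and 4 (log2, adjusted p = 0.0126 and 0.0023, edgeR). These values are from the fit with the Ctrl pairs as separate groups and no library left out. The call ended without Ctrl replicate 2, 3 or 4 (adjusted p = 0.0583, 0.0711 and 0.0827, edgeR) and without siHMGN5 replicate 1 or 2 (adjusted p = 0.265 and 0.200), with the direction kept. Where a group is left with 1 library, that library is assumed to vary like the other groups of the fit, so such a refit is no test of that group's own spread. Of the 465 rows of at least 10 CPM called higher in this comparison, 431 rose by more than STAT3.

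**Figure D2:**
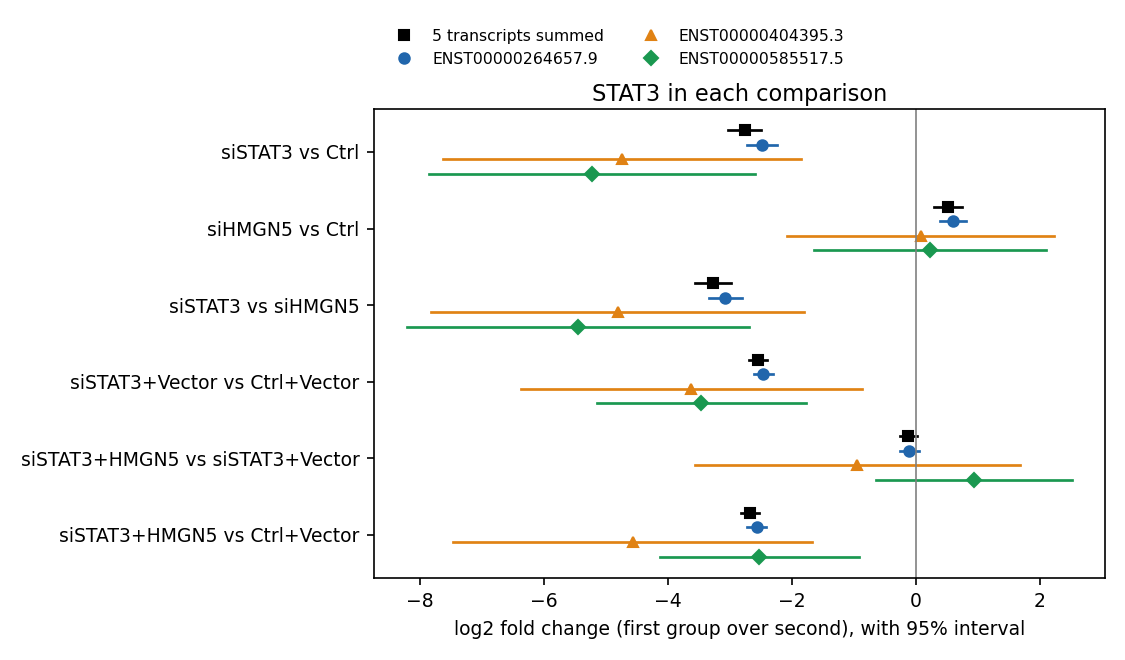
Log2 fold change of STAT3 (first-named group over the second, horizontal axis) with 95% intervals in 6 comparisons, for the 5 transcripts summed and for the 3 transcripts tested in both experiments. The sum lies between -3.28 and -2.55 in the 4 comparisons of STAT3 siRNA with libraries that lack it, and the intervals of ENST00000404395.3 and ENST00000585517.5 are several times wider than that of the sum.

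ENST00000264657.9, the longest of the 5 at 5047 bases, carried most STAT3 reads in every library. Its estimated reads were 398 and 354 in siSTAT3, 3393 and 3258 in siHMGN5, and 2310, 2264, 1936 and 2086 in Ctrl. They were 597, 587 and 590 in siSTAT3+HMGN5, 651, 610 and 650 in siSTAT3+Vector, and 3682, 3315 and 3377 in Ctrl+Vector. Libraries with STAT3 siRNA did not overlap those without it. The transcript fell 5.57-fold in siSTAT3 against Ctrl (log2 fold change -2.48 ± 0.10, SE, adjusted p = 0.000688, edgeR) and 5.51-fold in siSTAT3+Vector against Ctrl+Vector (-2.46 ± 0.07, SE, adjusted p = 4.83e-06). In siSTAT3+HMGN5 against siSTAT3+Vector it differed by -0.11 ± 0.06 (log2, SE, adjusted p = 0.520). In siHMGN5 against Ctrl it rose 1.51-fold (log2 fold change 0.60 ± 0.09, SE, adjusted p = 0.0202), a call that ended without Ctrl replicate 4 (adjusted p = 0.0524) and in the refits with 1 siHMGN5 library (adjusted p = 0.156 and 0.140).

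Per length, the longest transcript stood at 1.97 ± 0.195 TPM in siSTAT3 (SD, n = 2), 17.2 ± 1.17 TPM in siHMGN5 (SD, n = 2) and 12.8 ± 0.919 TPM in Ctrl (SD, n = 4). It stood at 2.74 ± 0.0796 TPM in siSTAT3+HMGN5, 2.95 ± 0.109 TPM in siSTAT3+Vector and 16.5 ± 0.306 TPM in Ctrl+Vector (SD, n = 3 each). The next by this scale, ENST00000404395.3, had 3.46 ± 0.71 TPM in Ctrl and 3.04 ± 0.507 TPM in Ctrl+Vector. The longest transcript was therefore the most abundant in libraries without STAT3 siRNA also when length is taken into account.

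ENST00000404395.3, of 2633 bases, had 0 and 20.8 estimated reads in siSTAT3, 390 and 238 in siHMGN5, and 247, 306, 237 and 371 in Ctrl. It had 24.5, 10.2 and 6.39 reads in siSTAT3+HMGN5, 38.9, 0 and 38.5 in siSTAT3+Vector, and 336, 357 and 258 in Ctrl+Vector. Libraries with STAT3 siRNA all lay below those without it. By the quasi-likelihood test the transcript nevertheless did not pass in siSTAT3 against Ctrl (log2 fold change -4.74 ± 1.21, SE, adjusted p = 0.0943, edgeR) or in siSTAT3+Vector against Ctrl+Vector (-3.62 ± 1.18, SE, adjusted p = 0.0889). It passed in siSTAT3+HMGN5 against Ctrl+Vector (-4.57 ± 1.24, SE, adjusted p = 0.0348), a call that ended without any 1 of the 6 libraries (adjusted p = 0.0664 to 0.116). DESeq2 called it in the first of these comparisons (adjusted p = 8.52e-07), limma-voom did not (adjusted p = 0.128), and both called it in the second (adjusted p = 0.00312 with DESeq2 and 0.0281 with limma-voom). The size of the siSTAT3 value rests on single libraries: it was -3.75 without siSTAT3 replicate 1 and -11.19 without replicate 2, which leaves 1 library at 0 reads (adjusted p = 0.0436 and 0.0190, edgeR). In siSTAT3+Vector against Ctrl+Vector the transcript also passed without siSTAT3+Vector replicate 2, the library at 0 reads (-3.04, adjusted p = 0.0231).

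ENST00000585517.5, of 3319 bases, was rarer. It had 0 and 3.82 estimated reads in siSTAT3, 130 and 65.4 in siHMGN5, and 77.9, 67.9, 115 and 64.5 in Ctrl. In the lentiviral experiment it had 3.63, 26.0 and 28.0 reads in siSTAT3+HMGN5, 10.1, 14.6 and 4.598 in siSTAT3+Vector, and 107, 123 and 99.95 in Ctrl+Vector. Again no library with STAT3 siRNA reached one without it. It fell 11.01-fold in siSTAT3+Vector against Ctrl+Vector (log2 fold change -3.46 ± 0.72, SE, adjusted p = 0.0168, edgeR), a call that ended without siSTAT3+Vector replicate 1 or 3 (adjusted p = 0.0690 and 0.0613). In siSTAT3 against Ctrl the value was -5.23 ± 1.11 (log2, SE, adjusted p = 0.0533). DESeq2 called it (adjusted p = 2.39e-08) and limma-voom did not (adjusted p = 0.205). The value was -4.27 without siSTAT3 replicate 1 (adjusted p = 0.0811, edgeR) and -9.36 without replicate 2, which leaves 1 library at 0 reads (adjusted p = 0.0355). In siSTAT3+HMGN5 against Ctrl+Vector the fall was 5.75-fold (adjusted p = 0.0354), and that call ended without any 1 of the 3 Ctrl+Vector libraries or without siSTAT3+HMGN5 replicate 2 or 3 (adjusted p = 0.0651 to 0.0897).

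The remaining pair of transcripts appeared in a few libraries only. ENST00000588969.5, of 2772 bases, was above 0 in 5 of 17 libraries: 309, 233 and 127 reads in Ctrl replicates 1, 2 and 3, 248 in siHMGN5 replicate 2 and 17.3 in siSTAT3+Vector replicate 2. ENST00000389272.7, of 2615 bases, was above 0 in 4 libraries: 43.4 reads in Ctrl replicate 1, 169 in siHMGN5 replicate 1, 133 in Ctrl+Vector replicate 3 and 4.10 in siSTAT3+Vector replicate 1. Replicates of 1 group thus ranged from 0 to 309 reads for the first and from 0 to 169 for the second. Both passed the filter on low values only in the siRNA experiment and passed no test there (adjusted p of at least 0.336, edgeR). A value of 0 allows up to 3 reads in a library by counting error, or 0.13 to 0.157 CPM. That limit does not cover reads which several transcripts could explain and which the authors' model gave to another of them.

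The 3 transcripts of 2615 to 2772 bases are close in length, and their reads were also summed. These summed reads were 0 and 20.8 in siSTAT3, 559 and 486 in siHMGN5, and 599, 539, 364 and 371 in Ctrl. They were 24.5, 10.2 and 6.39 in siSTAT3+HMGN5, 43.0, 17.3 and 38.5 in siSTAT3+Vector, and 336, 357 and 391 in Ctrl+Vector. The SD of the summed reads was 51.7 in siHMGN5 and 27.8 in Ctrl+Vector, against 108 and 51.9 for ENST00000404395.3 alone. In Ctrl it was larger, at 119 against 62.1, where replicates 1 and 2 lay above replicates 3 and 4. These 3 were grouped after their values were seen, so no test was run on them.

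**Figure D3:**
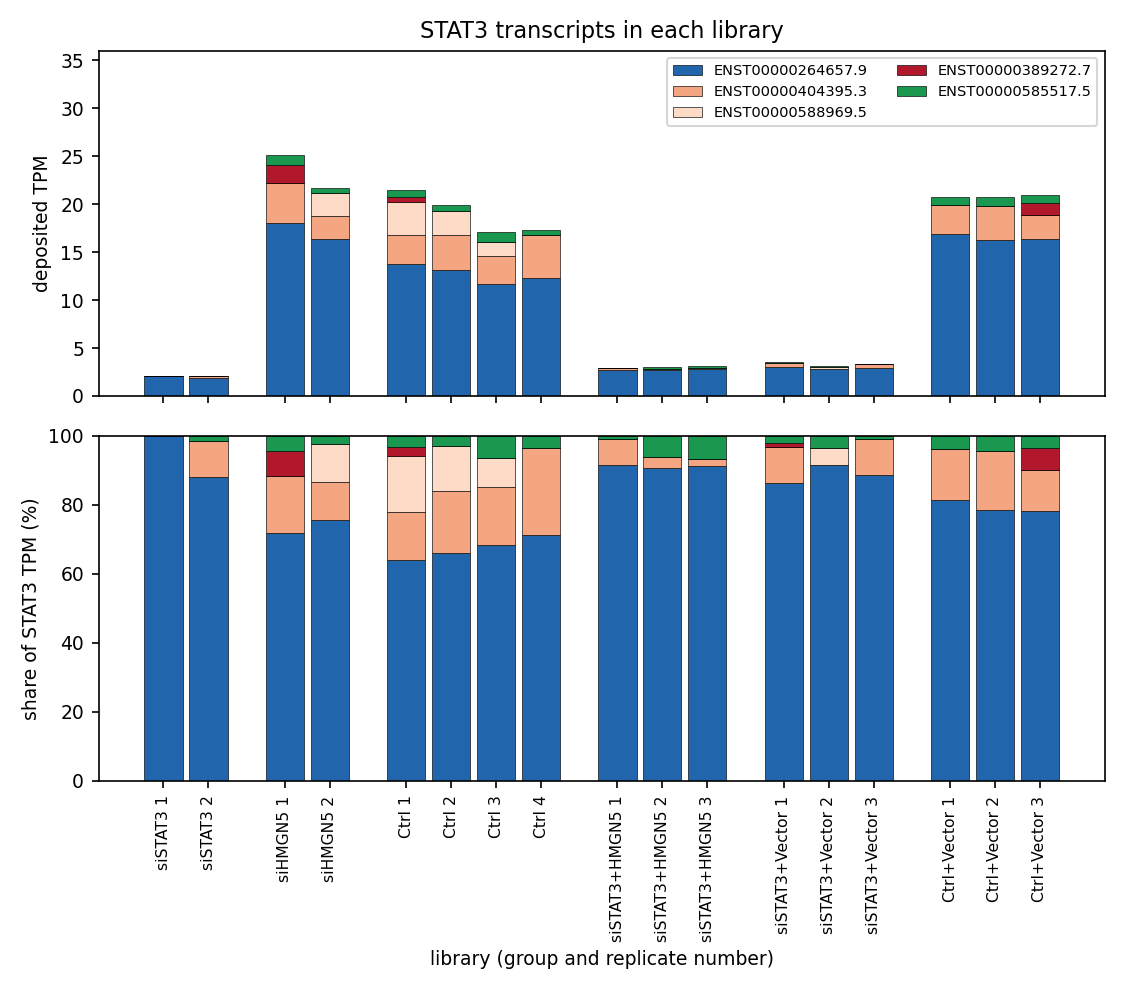
Deposited TPM of the 5 STAT3 transcripts in each library (top) and their share of the STAT3 TPM in percent (bottom), stacked by transcript, with libraries on the horizontal axis. ENST00000264657.9 fills 88.1% to 100% of the STAT3 TPM in siSTAT3, 71.8% to 75.6% in siHMGN5 and 64.1% to 71.1% in Ctrl, and 90.5% to 91.6% in siSTAT3+HMGN5, 86.4% to 91.6% in siSTAT3+Vector and 78.1% to 81.4% in Ctrl+Vector, and ENST00000588969.5 and ENST00000389272.7 come and go between replicates.

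The share of ENST00000264657.9 in the STAT3 reads was larger in all libraries with STAT3 siRNA than in those without, but no test of shares passed. Groups without STAT3 siRNA also differed, with a mean share of 79.8% in Ctrl, 84.3% in siHMGN5 and 88.0% in Ctrl+Vector. ENST00000264657.9 held 100% and 93.5% of the STAT3 reads in siSTAT3, against 77.3%, 78.9%, 80.2% and 82.7% in Ctrl. It held 92.5%, 95.03% and 93.8% in siSTAT3+Vector, against 89.3%, 87.4% and 87.3% in Ctrl+Vector. Neither pair of groups overlapped. The difference was 16.97 percentage points in the siRNA experiment and 5.78 in the lentiviral one, in exact two-sided permutation tests with p = 0.0667 and p = 0.1, the smallest these designs allow (adjusted p = 0.375 for both over 30 tests). In siSTAT3+HMGN5 the share was 95.5%, 94.2% and 94.5%, overlapping siSTAT3+Vector (difference 0.972 points, exact permutation p = 0.4).

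The 4 other transcripts together had 0 and 24.6 reads in siSTAT3, 28.1 to 36.2 in siSTAT3+HMGN5 and 31.9 to 53.1 in siSTAT3+Vector, against 436 to 677 in Ctrl and 443 to 491 in Ctrl+Vector. The shares in knockdown libraries thus rest on few reads, divided by a model, and the part of read number in the shift of shares was not tested. In siHMGN5 the longest transcript held 83.1% and 85.5%, above the 4 Ctrl libraries (difference 4.54 points, exact permutation p = 0.133, adjusted p = 0.444).

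Among 13188 other transcripts that averaged 10 CPM or more in both experiments, those most like the STAT3 sum were sought by Pearson's r of log2 CPM, over 8 libraries of the siRNA experiment and over 9 of the lentiviral one. The libraries fall into knockdown and other libraries, so r mostly reflects that split and is given as a description. ENST00000373766.9 (r = 0.999 and 0.988) and ENST00000295958.9 (r = 0.986 and 0.990) were the most alike, and 165 transcripts had r of at least 0.9 in both. ENST00000373766.9 averaged 60.7 CPM in siSTAT3, 106 in siHMGN5 and 98.1 in Ctrl, and 124 in siSTAT3+HMGN5, 126 in siSTAT3+Vector and 193 in Ctrl+Vector. ENST00000295958.9 averaged 5.50 CPM in siSTAT3, 21.3 in siHMGN5 and 19.4 in Ctrl, and 6.82 in siSTAT3+HMGN5, 9.17 in siSTAT3+Vector and 38.0 in Ctrl+Vector. Both were chosen for this likeness, and neither was called in siHMGN5 against Ctrl (adjusted p = 0.349 and 0.653, edgeR). Neither was called in siSTAT3+HMGN5 against siSTAT3+Vector either (adjusted p = 0.933 and 0.0819, edgeR).

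ENST00000268483.7 (r = -0.981 and -0.979) and ENST00000354906.7 (r = -0.979 and -0.977) were the most opposite. ENST00000268483.7 averaged 29.1 CPM in siSTAT3, 11.4 in siHMGN5 and 14.3 in Ctrl, and 26.3 in siSTAT3+HMGN5, 26.0 in siSTAT3+Vector and 15.0 in Ctrl+Vector. ENST00000354906.7 averaged 28.8 CPM in siSTAT3, 8.20 in siHMGN5 and 11.6 in Ctrl, and 55.4 in siSTAT3+HMGN5, 38.2 in siSTAT3+Vector and 11.6 in Ctrl+Vector. Both were chosen for this opposite pattern, and neither was called in siHMGN5 against Ctrl (adjusted p = 0.262 and 0.187, edgeR). Neither was called in siSTAT3+HMGN5 against siSTAT3+Vector either (adjusted p = 0.973 and 0.05004, edgeR). The files pair none of the 4 IDs, alike or opposite, with a gene.

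**Figure D4:**
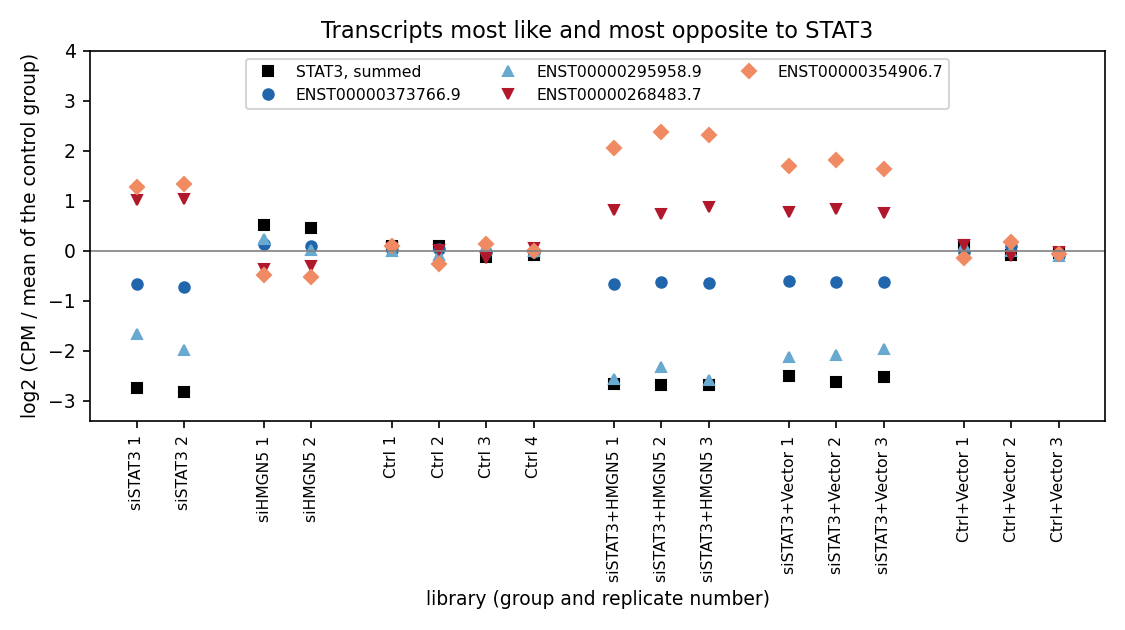
Log2 of CPM over the mean of the experiment's control group (Ctrl or Ctrl+Vector) in each library, for the STAT3 sum and the 4 transcripts whose pattern was most like or most opposite to it. STAT3 and both alike transcripts lie below 0 in all 8 libraries with STAT3 siRNA, and both opposite transcripts lie above 0 there and below 0 in both siHMGN5 libraries. The 4 transcripts were chosen by their levels in these same libraries, so these positions follow from the choice.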

How the data were processed

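Each deposited table lists Ensembl transcripts and gives length, effective length, TPM and NumReads, per the file headers. Salmon 1.4.0 and the builds GRCh38 and hg38 stand in the submitters' processing notes. The transcript set and options are not given in the sources used here. NumReads in the deposited files are estimated counts that need not be whole, because reads that several transcripts could explain are divided by a model. TPM, also deposited by the authors, corrects for effective length and sums to a fixed total, and was used only for levels and shares. Lengths are in bases, as other columns of the deposited files give them.

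Counts were rounded and fitted separately for each experiment, with 8 libraries (siRNA) and 9 (lentiviral) (edgeR 4.0.16, TMM, filterByExpr, quasi-likelihood test on group means, Benjamini-Hochberg threshold 0.05, R 4.3.3). The sum was tested in the whole table with the 5 STAT3 rows replaced by 1 row, and single transcripts in the table as deposited. SE is the absolute log2 fold change over the root of the test statistic. Alternatives used limma 3.58.1 (limma-voom), DESeq2 1.42.0, other scalings, no filter, other samples and controls. Where a pair of Ctrl libraries served as the only control, the other pair stayed in the fit as its own group. The fitting steps were tested on simulated data with known changes.

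The members, lists and tests were chosen with earlier results of these data known. Named other transcripts were the 2 most alike and the 2 most opposite by the lower of 2 correlations. Lists of pathway genes and cell line markers were not run, since transcripts are not paired with symbols in the tables used here. No pair of replicates agreed within counting noise (mean chi-square of at least 14.7 per transcript), so none was merged; the model that divides reads adds spread of its own, and this does not show separate cultures. The limit given for a value of 0 covers counting error only. The CUT&Tag samples of Ctrl and siHMGN5 are not analysed here.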

Additional observations from a re-analysis of the deposited data

Results flagged for a closer look

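ENST00000389272.7 in Ctrl replicate 1, at 2.17 CPM, stood apart from the other 3 Ctrl libraries, all of which were listed at 0 CPM. With the others at 0, the gap to the nearest library is the whole range of the group for any value above 0, so the mark follows from the zeros. The usual chance rate does not hold for this transcript, which was at 0 in 13 of 17 libraries.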

How the results depend on the processing

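The fall of summed STAT3 in siSTAT3 against Ctrl and against siHMGN5, and in siSTAT3+Vector and siSTAT3+HMGN5 against Ctrl+Vector, passed in each of the 15, 11, 13 and 13 alternatives run. The difference between siSTAT3+HMGN5 and siSTAT3+Vector did not pass in any of 13. The rise in siHMGN5 against Ctrl passed in 7 of 15 and kept its direction. It was 0.50 with no filter on low counts (adjusted p = 0.0797), 0.52 with only the compared groups fitted (adjusted p = 0.0844) and 0.47 to 0.56 with 1 library left out. As a percent of the Ctrl mean, CPM put siSTAT3 at 14.54%, siHMGN5 at 140.3%, siSTAT3+HMGN5 at 20.05%, siSTAT3+Vector at 21.85% and Ctrl+Vector at 128.0%. On the same basis the deposited TPM put siSTAT3 at 11.0%, siHMGN5 at 123.4%, siSTAT3+HMGN5 at 15.86%, siSTAT3+Vector at 17.48% and Ctrl+Vector at 109.6%. The lentiviral groups are here set against Ctrl of the other experiment, not against Ctrl+Vector. Library totals alone put siHMGN5 at 148.1% and siSTAT3+HMGN5 at 19.71%. The difference in knockdown between experiments passed with Ctrl replicates 1 and 2 as the only controls and the other Ctrl pair kept as its own group (-0.33). The cause of these changes was not tested.

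In siHMGN5 against Ctrl the 4 shorter transcripts, none of them called, turned direction in some alternatives, while ENST00000264657.9 kept its own in all 15 alternatives. Without siHMGN5 replicate 1 the log2 fold change was -0.34 for ENST00000585517.5, -6.41 for ENST00000389272.7, 0.55 for ENST00000588969.5 and -0.31 for ENST00000404395.3. Without siHMGN5 replicate 2 it was 0.62, 3.93, -10.38 and 0.37 for the same transcripts in that order. Without Ctrl replicate 1 it was 0.021 for ENST00000588969.5 and -0.0034 for ENST00000404395.3, and without Ctrl replicate 3 it was -0.0098 for ENST00000404395.3. With Ctrl replicates 3 and 4 only it was 0.93 for ENST00000588969.5 and -0.0039 for ENST00000404395.3. In siSTAT3+HMGN5 against siSTAT3+Vector, limma-voom gave 0.35 for ENST00000404395.3.

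Libraries with the same replicate number did not deviate together (r = -0.0733 to 0.0671 over both experiments), so the numbers were not taken as pairs. In the lentiviral experiment a library's best match in another group had its number in 4 of 18 settings. With replicate number as a block, the rise of STAT3 in siHMGN5 against Ctrl was 0.41 (adjusted p = 0.0620, edgeR) and the difference in knockdown between experiments was -0.34 (adjusted p = 0.0296). The block also ended the calls of ENST00000264657.9 in siHMGN5 against Ctrl (0.52, adjusted p = 0.0834) and, in siSTAT3+HMGN5 against Ctrl+Vector, of ENST00000585517.5 and ENST00000404395.3 (adjusted p = 0.0732 and 0.0807). Both of these calls ended with no filter on low counts too (adjusted p = 0.0599 and 0.0535), and that of ENST00000585517.5 with only the compared groups fitted (adjusted p = 0.0507). Under the block calls fell from 3181 to 1301 in siSTAT3 and from 2521 to 814 in siHMGN5 against Ctrl, without Ctrl 3 and 4. In siSTAT3+HMGN5 against siSTAT3+Vector they fell from 2631 to 981. The permutation tests of shares could not reach a p of 0.05 with these group sizes.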
